A study of Homo sapiens with 6 samples.

Results

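The DEAD box (DDX) and DEAH box (DHX) helicase genes were examined in chromatin immunoprecipitation sequencing (ChIP-Seq) data from CHP-134, a neuroblastoma line of human origin with MYCN amplification and a gain of the distal long arm of chromosome 17. All autosomal protein-coding genes whose symbol starts with DDX or DHX followed by a number were taken, except DDX1, which gave 50 genes (34 DDX and 16 DHX) of 18886 autosomal protein-coding genes. Their symbols were looked up in the lists of promoters, typical enhancers and super-enhancers that N-Myc, JMJD6 or both occupied, together with the common peaks that overlapped the promoters. MYCN encodes the transcription factor N-Myc, and JMJD6 belongs to the jumonji domain family and is known as an arginine demethylase.

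The 6 samples formed 2 groups of 3, both from CHP-134 cells grown in the same medium. The N-Myc group was immunoprecipitated with an N-Myc antibody after cross-linking with formaldehyde alone. The JMJD6 group was immunoprecipitated with a JMJD6 antibody after double cross-linking with disuccinimidyl glutarate and then formaldehyde, so every N-Myc to JMJD6 difference is also a difference in cross-linking. Replicates were combined before deposit: a common peak is a peak found in all 3 replicates, the lists used here hold no value per sample, and the spread between replicates and the depth behind a peak cannot be read from them. The N-Myc list held 10172 common peaks and the JMJD6 list 561. Of the markers of adrenergic neuroblastoma looked up, HAND2 (4 regions) and GATA3 (1) were assigned super-enhancers bound by N-Myc, PHOX2A, ISL1, TH and CHGA were assigned typical enhancers bound by N-Myc, and DBH was assigned none.

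DEAD and DEAH box proteins use ATP to unwind short RNA duplexes or to remodel complexes of RNA and protein. They act at nearly every step in the life of an RNA: processing of ribosomal RNA in the nucleolus, assembly and rearrangement of the spliceosome, export through the nuclear pore, translation, decay and the sensing of viral RNA. Myc proteins bind DNA as dimers with MAX at the E-box, whose canonical form is CACGTG, with CACGCG as a common noncanonical form and CATGTG as another, and genes for ribosome production are among their best known targets.

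Every canonical E-box found in an N-Myc promoter peak of a helicase gene is shown here with 12 bases on each side, since these letters are the sequence that N-Myc and MAX are known to recognise. There were 14 such sites in 14 genes, each with exactly 1 site in its peak. The sequences were read 5′ to 3′ on the strand of the gene from GRCh37, with CACGTG in capitals. This set was chosen after the values were seen, because no peak held 2 or more sites.
DDX18, chr2:118572254-118572283, plus strand: ggccgagctgcgCACGTGcggccggaaggg
DDX21, chr10:70716360-70716389, plus strand: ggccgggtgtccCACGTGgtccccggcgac
DDX52, chr17:36004059-36004088, minus strand: tttcccttcagcCACGTGtttcccctatct
DHX33, chr17:5372263-5372292, minus strand: gggagccgccagCACGTGgcggcgaggaag
DHX37, chr12:125473619-125473648, minus strand: ggtctgggaaccCACGTGggctgggtttcg
DDX5, chr17:62502769-62502798, minus strand: gggtggtacagcCACGTGacaacgccaggc
DDX39A, chr19:14529161-14529190, minus strand: ggtaactgggtaCACGTGgcgtgtctgggt
DDX42, chr17:61851197-61851226, plus strand: gctgtgtgggacCACGTGgccagaggcaag
DHX35, chr20:37590791-37590820, plus strand: gctgagcagggtCACGTGggctcgggggcg
DHX40, chr17:57642809-57642838, plus strand: caaggcgaagcgCACGTGgcagttggcggg
DHX29, chr5:54604468-54604497, minus strand: ttaggcactttaCACGTGtatctcattgaa
DHX34, chr19:47852310-47852339, plus strand: ggagctgaggcgCACGTGgctatgcttggg
DHX36, chr3:154041849-154041878, minus strand: tcttaagtgatgCACGTGttttgtgaaatg
DDX59, chr1:200639646-200639675, minus strand: agctgcttgggaCACGTGgctccagaggtt

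The canonical E-boxes were split evenly around the listed start sites, with 7 upstream and 7 downstream, and 10 of the 14 lay within 500 bp. The nearest were those of DDX18 (14 bp downstream), DHX37 (33 bp downstream), DHX40 (62 bp upstream) and DDX5 (65 bp downstream). The farthest were those of DDX39A (1019 bp downstream, in an intron) and DHX29 (933 bp upstream). By the annotation, 6 sites lay upstream of the gene, 6 in untranslated exons and 2 in introns. C before or G after the hexamer, which extends the E-box to CCACGTG or CACGTGG, was present at 11 of the 14 sites (78.6%), against 950 of 1457 sites (65.2%) in the N-Myc promoter peaks of all autosomal coding genes. DDX21, DDX42 and DHX37 had both, the palindrome CCACGTGG.

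As a contrast, the widest promoter peak without CACGTG belonged to DDX11, a DNA helicase of sister chromatid cohesion. It held 2 noncanonical E-boxes, which are CACGCG read on the opposite strand and stand here as CGCGTG in capitals, 64 bp upstream and 407 bp downstream of the start site.
DDX11, chr12:31226700-31226729, plus strand: gatcccagttccCGCGTGcgcaaaccacgc
DDX11, chr12:31227171-31227200, plus strand: attaacagcagcCGCGTGtctgggtcttag

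For a view of the sequence around an upstream E-box, the 250 bases before the start site are shown for DHX34 and DHX40. They are 2 of the 3 genes with a CACGTG less than 250 bp upstream, and their stretches meet no annotated exon, while that of DHX35, the remaining gene, does. CACGTG is in capitals. The DHX34 stretch is 66.8% G and C and the DHX40 stretch 64%.
DHX34, chr19:47852287-47852536, plus strand: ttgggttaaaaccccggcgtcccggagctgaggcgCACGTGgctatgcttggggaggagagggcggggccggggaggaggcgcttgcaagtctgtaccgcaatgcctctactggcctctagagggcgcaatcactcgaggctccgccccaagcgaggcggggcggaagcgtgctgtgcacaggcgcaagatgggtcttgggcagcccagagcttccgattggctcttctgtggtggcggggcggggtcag
DHX40, chr17:57642635-57642884, plus strand: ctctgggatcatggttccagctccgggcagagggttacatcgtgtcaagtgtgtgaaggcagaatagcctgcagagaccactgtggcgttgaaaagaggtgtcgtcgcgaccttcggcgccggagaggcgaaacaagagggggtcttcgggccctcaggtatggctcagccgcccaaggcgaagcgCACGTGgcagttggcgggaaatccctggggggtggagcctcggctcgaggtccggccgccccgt

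N-Myc occupied the promoters of most of the helicase genes. Of the 50 genes, 30 (60%, exact binomial 95% CI 45.2 to 73.6%) were in the N-Myc promoter list, which takes 1 kb on each side of a RefSeq start site, against 18.6% of all 18886 autosomal coding genes. Below, the start site of a peak is the listed RefSeq site nearest to it, unless an annotated GENCODE site is named. The share was 61.8% for DDX genes (21 of 34) and 56.2% for DHX genes (9 of 16). The genes lay on 17 chromosomes and the listed promoters on 15 of them. Because the genes were chosen with earlier results known and the lists carry no replicate values, these shares are a description beside all genes and no test was run. Intervals cover counting error over genes only.

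Among the 16 genes for ribosome biogenesis, 10 had a listed N-Myc promoter (62.5%, 95% CI 35.4 to 84.8%). The widest of their peaks was at DDX21, a nucleolar helicase that acts in ribosomal RNA transcription and processing. It spanned 767 bp (chr10:70715384-70716150), covered a start site and held 2 CACGCG, and a second, narrower peak of 275 bp (chr10:70716275-70716549) held the CACGTG shown above. DDX50, the close paralogue of DDX21 and its neighbour on chromosome 10, had a 289 bp peak (chr10:70661349-70661637) that began 316 bp downstream of the start site and held 1 CACGCG. The paralogue pair therefore shared N-Myc promoters but not the canonical E-box.

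DDX18, needed for maturation of the large ribosomal subunit, had a 560 bp peak (chr2:118571889-118572448) over its start site with CACGTG. DDX10, a helicase of small subunit RNA processing, had a 543 bp peak (chr11:108535475-108536017) whose centre lay 5 bp upstream of the start site and which held CACGCG only. DDX27 (467 bp, chr20:47835722-47836188) and DDX24 (278 bp, chr14:94547425-94547702), both nucleolar, had peaks over their start sites with none of the 3 E-box forms. These 4 peaks all covered a start site and differed in their motifs.

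DHX37, which releases the U3 small nucleolar RNA from the small subunit precursor, had the narrowest helicase promoter peak, at 251 bp (chr12:125473541-125473791), centred 1 bp downstream of the start site with CACGTG. DHX33, known for its role in ribosomal RNA transcription, had a 364 bp peak (chr17:5372223-5372586) over its start site with CACGTG. The peaks of DDX52 (324 bp, chr17:36003896-36004219) and DDX56 (332 bp, chr7:44613349-44613680) did not cover the listed start site, although the DDX56 peak covered an annotated one. The DDX52 peak ended 403 bp upstream and held CACGTG, while the DDX56 peak began 457 bp downstream and held 2 CACGCG. The other 6 ribosome biogenesis genes, DDX31, DDX47, DDX49, DDX51, DDX54 and DDX55, had no listed N-Myc promoter.

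Of the 15 genes for splicing and assembly of small nuclear ribonucleoproteins, 11 had a listed N-Myc promoter (73.3%, 95% CI 44.9 to 92.2%). DDX39B, an RNA helicase that acts both in early spliceosome assembly and in mRNA export, had the second widest peak of all the helicase genes. It spanned 1109 bp (chr6:31509364-31510472) over the start site with 1 CATGTG and no other E-box form. Its paralogue DDX39A had 2 peaks, of 601 bp over the start site (chr19:14529991-14530591) and 511 bp in the gene (chr19:14528864-14529374), and only the second held CACGTG. Both paralogues of this pair had N-Myc over the start site, in peaks without a canonical E-box.

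DDX5 and DDX17 are paralogues that act as splicing factors and transcriptional coregulators. DDX5 had 4 listed promoters and 2 peaks, of 681 bp (chr17:62502506-62503186) with 1 CACGTG and 1 CACGCG, and of 325 bp (chr17:62501601-62501925) with 1 CATGTG. DDX17 had a 452 bp peak (chr22:38902292-38902743) over its start site with none of the 3 motifs. DDX20 (Gemin3), part of the SMN complex that assembles small nuclear ribonucleoproteins, also had 2 peaks, of 563 bp (chr1:112297617-112298179) and 368 bp (chr1:112298293-112298660), which lie on either side of the listed start site. The second covered an annotated start site and held a CATGTG, the only motif of the pair.

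The helicases that drive the rearrangements of the spliceosome were not occupied alike. DDX23, the U5 helicase that swaps U1 for U6 at the 5′ splice site, had a 426 bp peak (chr12:49245804-49246229), and DHX8, which releases the spliced mRNA, had a 402 bp peak (chr17:41561088-41561489). Both covered the start site and held none of the 3 motifs. DHX16, DHX38, DHX15 and DDX46, which act at other steps, were the 4 splicing genes without a listed N-Myc promoter, and their nearest common N-Myc peaks lay 14.2, 84.4, 61.3 and 20.3 kb away.

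The remaining splicing genes carried peaks of moderate width. DDX42, associated with the branch site complex, had a 528 bp peak (chr17:61851013-61851540) upstream of its listed start site and over an annotated one, with CACGTG. DDX41, a component of the late spliceosome that is also a DNA sensor, had a 388 bp peak (chr5:176943925-176944312) just downstream of the listed start site and over an annotated one, with no motif. DHX40 had a 443 bp peak (chr17:57642643-57643085) over the start site with both CACGTG and CACGCG. DHX35 had 2 peaks that flanked the start site, of 369 bp (chr20:37590468-37590836) upstream with CACGTG and of 315 bp (chr20:37591190-37591504) downstream without a motif.

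Of the 7 genes for mRNA export, translation and decay, 5 had a listed N-Myc promoter (71.4%, 95% CI 29 to 96.3%). DDX19A and DDX19B, paralogues on chromosome 16 that release export factors at the nuclear pore, had peaks of 729 bp (chr16:70380453-70381181) and 277 bp (chr16:70323311-70323587). The DDX19A peak covered the listed start site, and the DDX19B peak ended 82 bp upstream of the listed site but covered an annotated one. DHX29, which helps the ribosome scan structured leaders, had the third widest peak, of 1015 bp (chr5:54603570-54604584). This peak lies between DHX29 and SKIV2L2 (MTREX), a helicase of the nuclear exosome that starts on the other strand, so it was listed for both. DHX34, a factor of nonsense-mediated decay, had a 466 bp peak and DHX36, which unwinds G-quadruplexes, a 294 bp peak, each with CACGTG. DDX6, of mRNA decay, and DDX25, of the testis, had none.

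The smaller groups were mixed. DDX28, needed for the large subunit of the mitochondrial ribosome, had a 390 bp peak, and DHX30, also mitochondrial, had none. DDX11 had the widest peak of all, at 1310 bp (chr12:31226461-31227770), and DHX9, of R-loops and DNA repair, had no listed promoter. DDX59, whose function is less settled, had a 675 bp peak with CACGTG. None of the 3 genes for RNA sensing (DDX60, DDX60L and DHX58) and neither germ line gene (DDX4 and DDX43) was listed. Groups of 2 or 3 genes are too small for a share to be read. DHX57 was listed, but no common N-Myc peak overlapped its promoter and the nearest lay 40.6 kb away. Of all 5114 listed N-Myc promoters, 131 likewise overlapped no common peak.

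**Figure D1:**
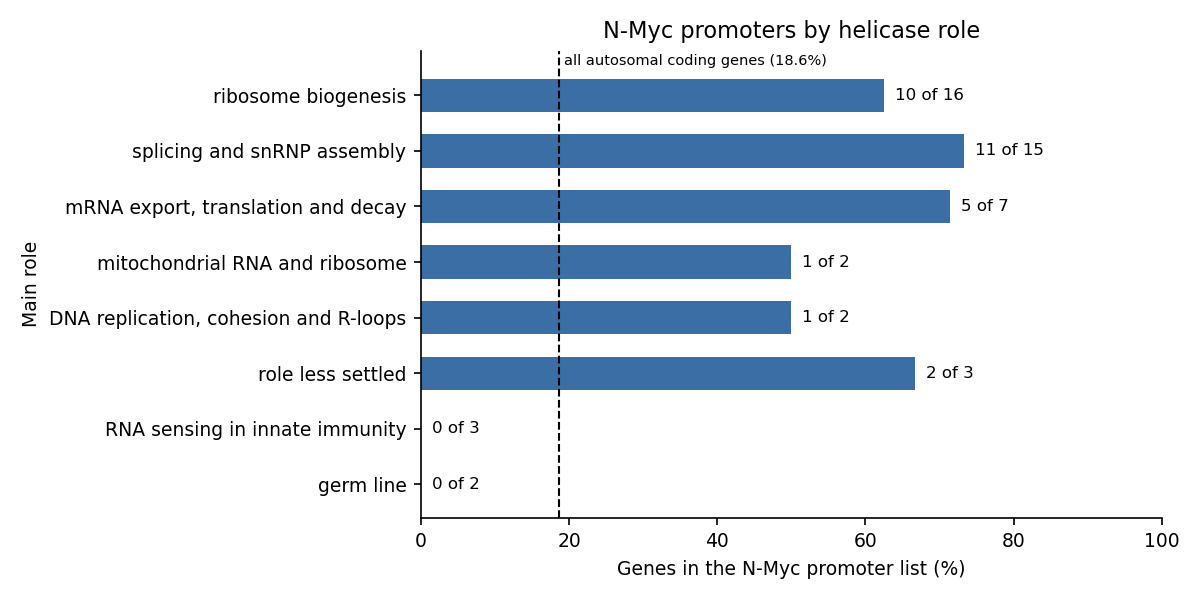
Share of helicase genes in the N-Myc promoter list (x axis, percent) for each main role (y axis), with the number of genes listed of the number in the role beside each bar and the 18.6% of all autosomal coding genes as a dashed line. The splicing bar (11 of 15) and the ribosome biogenesis bar (10 of 16) pass the line, while RNA sensing (0 of 3) and germ line (0 of 2) have no bar.

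Because part of the long arm of chromosome 17 (17q) is gained in this cell line, the share was also taken for the whole arm, without the limits of the gain. On 17q, 5 of 6 helicase genes were listed, against 213 of 827 coding genes (25.8%). Elsewhere 25 of 44 were listed (56.8%, 95% CI 41 to 71.7%), against 18.3% of the other coding genes. The helicase share was above that of all genes on and off 17q by counts alone, and an effect of the gain was not tested. Among 32 helicase genes with a CpG-rich start site, a class added after the data were seen, 19 (59.4%) were listed, against 24.8% of all genes of that class.

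The promoter peaks were similar in width to those of other genes. The 34 peaks of the 29 genes that had any ranged from 251 to 1310 bp with a median of 434.5 bp, and the 3276 N-Myc promoter peaks of all autosomal coding genes had a median of 449 bp. The 5 widest belonged to DDX11, DDX39B, DHX29, DDX21 and DDX19A, and the 5 narrowest to DHX37, DDX21 (its second peak), DDX19B, DDX24 and DDX50. Peaks with CACGTG had a median of 454.5 bp (n = 14) and those without 414 bp (n = 20), with ranges of 251 to 1015 and 277 to 1310 bp that overlap almost fully.

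**Figure D2:**
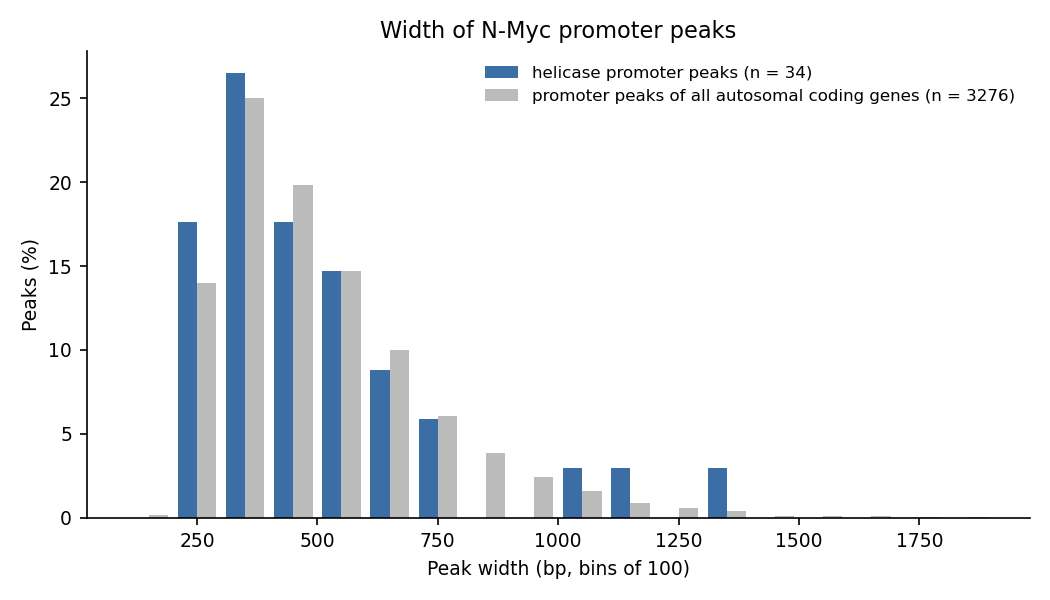
Width of N-Myc promoter peaks (x axis, bp in bins of 100; y axis, percent of peaks) for the 34 helicase peaks in blue and the 3276 peaks of all autosomal coding genes in grey. Both distributions are highest between 300 and 400 bp, and the helicase peaks above 1000 bp are those of DHX29, DDX39B and DDX11.

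The peak centres lay on both sides of the start sites, 17 upstream and 17 downstream. Their absolute distance had a median of 218.5 bp, against 200.5 bp over all genes, in lists that by definition reach only 1 kb from a start site. For all genes these are 3788 pairs of gene and peak, so a peak listed for several genes counts for each. The signed median of the helicase peaks was 2 bp upstream, from 564 bp upstream (DDX52) to 1076 bp downstream (DDX39A). The pairs of all genes had a median of 51 bp upstream. The listed start site was covered by 17 of the 34 peaks and an annotated one by 24, and 18 centres lay within 250 bp of the listed site. By the annotation 15 centres were upstream of the gene, 11 in introns and 8 in untranslated exons. At 15 peaks the promoter of a gene on the opposite strand was also listed, among them AARS at DDX19B, IFI27L1 at DDX24, STAU1 at DDX27, DUS2 at DDX28, CCDC47 at DDX42, CEP95 at DDX5, FAM212B at DDX20, SKIV2L2 at DHX29, and the antisense genes DDX11-AS1 and DDX39B-AS1. At these promoters a peak cannot be given to either gene from position.

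**Figure D3:**
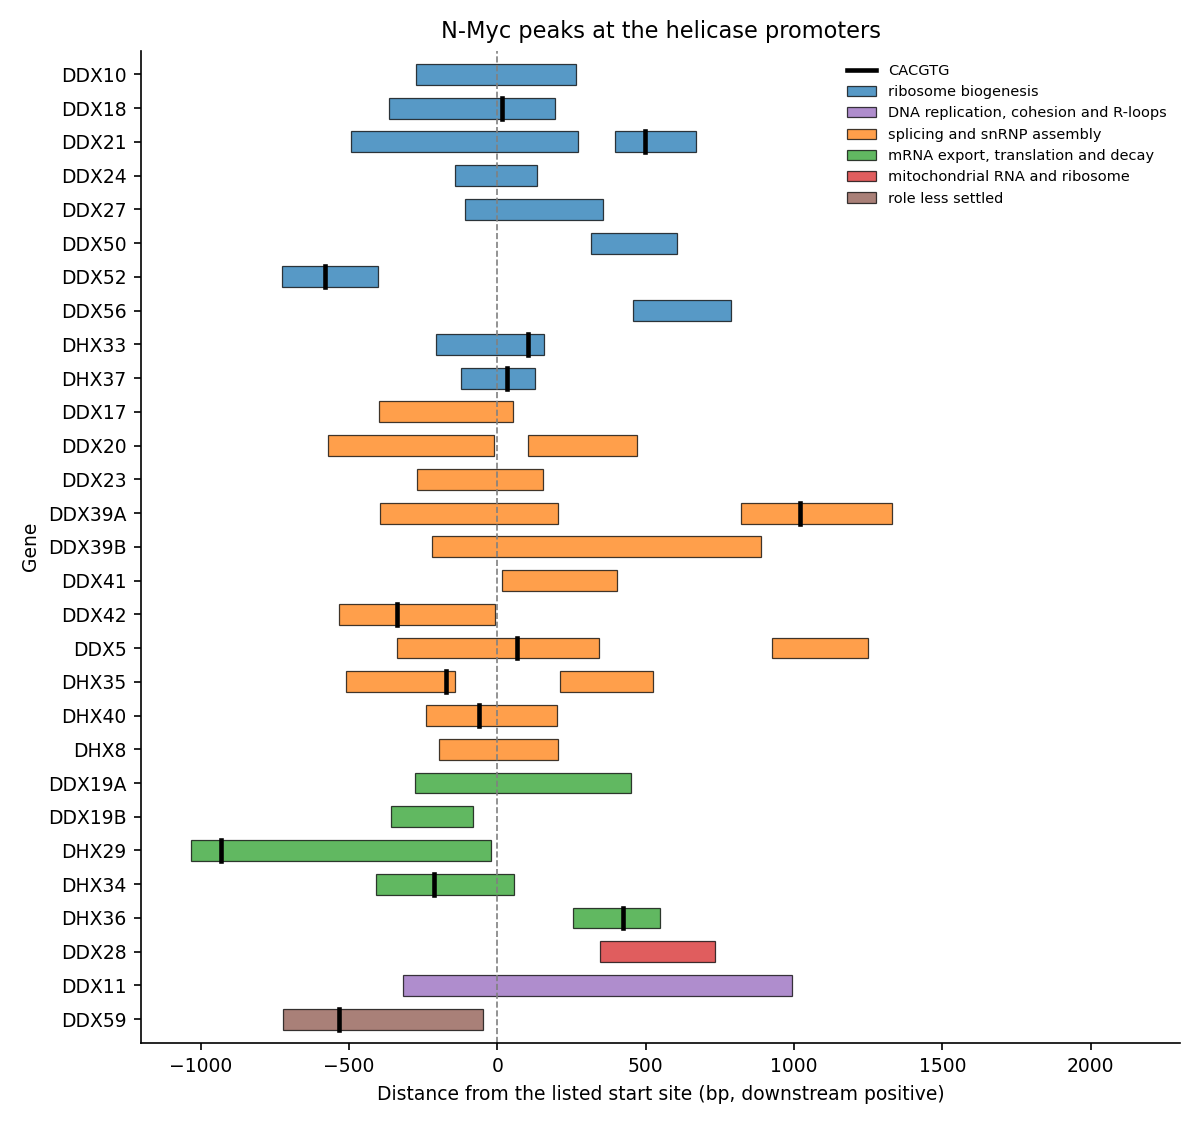
N-Myc peaks at the promoters of 29 helicase genes (y axis), drawn by distance from the listed start site (x axis, bp, downstream positive), coloured by main role, with CACGTG as black marks; where a gene has several listed start sites, the one nearest its widest peak is used. 17 of the 34 peaks cover a listed start site, and the 14 marks fall on both sides of it.

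The canonical E-box was found in part of the peaks. Of the 29 genes with a promoter peak, 14 (48.3%, 95% CI 29.4 to 67.5%) had CACGTG in it, against 38.8% of the 3433 autosomal coding genes with such a peak, a difference within the interval. In a further 6 peaks CACGCG was present without CACGTG, in 3 only CATGTG, and in 11 none of the 3, both strands searched. Absence says only that these letters are not in the peak. Counted within 1 kb of the start site instead, CACGTG was present for 14 of the 30 listed genes (46.7%), against 49.1% of all genes in the N-Myc promoter list. For the 20 unlisted helicase genes it was present in 10 (50%), against 37.5% of all unlisted genes. Listed genes were searched at their listed RefSeq start sites, and unlisted genes at every annotated GENCODE start site. The unlisted genes could therefore have more windows, and the listed and unlisted shares cannot be compared directly. DDX51, which had 3 CACGTG within 1 kb of an annotated start site, was not in the promoter list.

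Motifs of other promoter factors were also counted in the 34 peaks on both strands, a choice made after the peaks were seen. CCGGAAG, the core of ETS family sites, was present in 12 (35.3%), against 21.9% of the promoter peaks of all genes. GCGCATGC, the core of NRF1 sites, was present in 4 (11.8%, at DDX10, DDX11, DDX27 and DDX41), against 6.81%. TGACGTCA, the full cyclic AMP response element, was also present in 4 (11.8%, at DDX10, DDX19A, DDX28 and DDX42), against 2.81%. GGGCGG, the core of SP1 sites, was present in 23 (67.6%, against 58.7%) and CCAAT in 18 (52.9%, against 49%). A match of letters is not a bound site.

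No helicase promoter was listed as bound by JMJD6. In the JMJD6 promoter list 0 of the 50 genes appeared, which allows a share of up to 6% (3 counts; the exact 95% interval reaches 7.11%), against 0.657% of all autosomal coding genes. None of the 34 N-Myc promoter peaks overlapped a JMJD6 peak, against 42 of the 3276 N-Myc promoter peaks of all coding genes (1.28%). With a list of 561 peaks, a share below that of all genes could not be detected in 50 genes. The distance from a start site to the nearest JMJD6 peak had a median of 2123 kb, against 2375 kb for all genes, and 3 helicase genes (6%) had a JMJD6 peak within 100 kb, against 5.79%.

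The nearest JMJD6 peak belonged to DHX34 and was the only one inside a helicase gene. It spanned 348 bp in an intron, 2.19 kb downstream of the start site at its near edge, did not overlap an N-Myc peak and was 46% G and C. It held 1 CATGTG, shown in capitals in the central 201 bases, and neither of the other E-box forms.
DHX34, chr19:47854835-47855035, plus strand: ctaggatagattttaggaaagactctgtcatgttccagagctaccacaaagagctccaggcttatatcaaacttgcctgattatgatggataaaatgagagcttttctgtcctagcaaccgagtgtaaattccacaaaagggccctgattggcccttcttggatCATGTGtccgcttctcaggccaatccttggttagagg
The next nearest JMJD6 peaks lay 71.2 kb from DDX39B and 74.8 kb from DDX42. All 3 genes had an N-Myc peak at the promoter, as did 29 of all 50 helicase genes, and 3 genes are too few to compare.

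**Figure D4:**
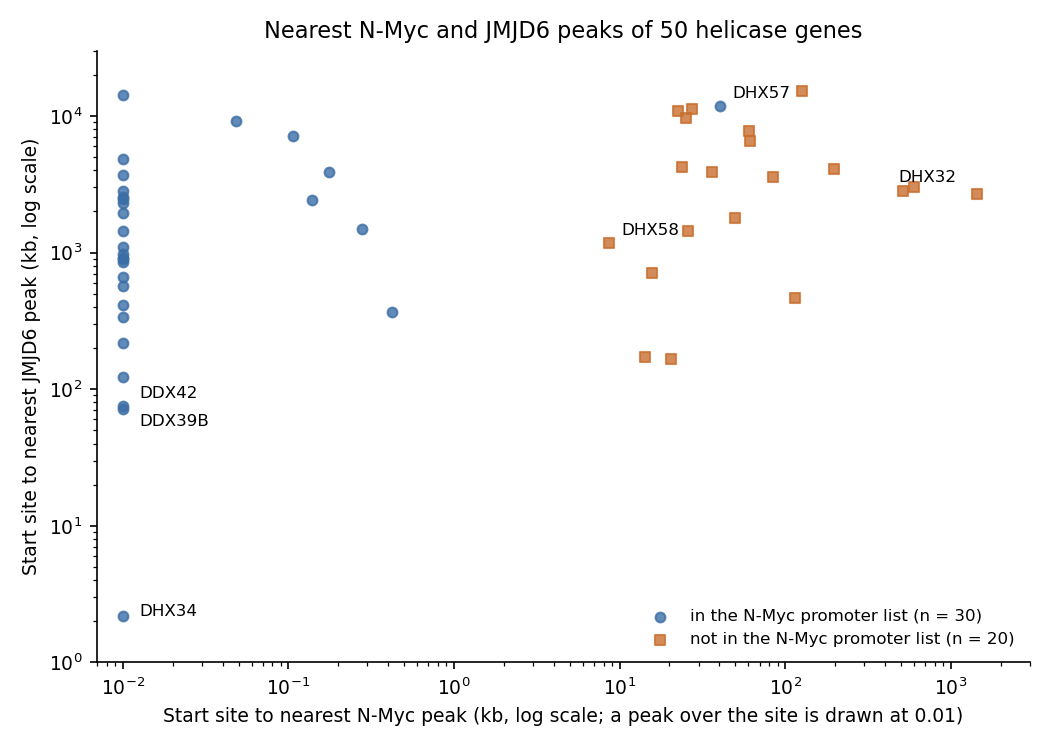
Distance from the nearest annotated start site of each of the 50 helicase genes to the nearest common N-Myc peak (x axis, kb, log scale, with peaks over the site drawn at 0.01) and to the nearest JMJD6 peak (y axis, kb, log scale). Genes in the N-Myc promoter list (blue circles) lie at or under 0.421 kb on the x axis except DHX57 at 40.6 kb, unlisted genes (orange squares) begin at 8.63 kb, and DHX34 alone lies under 10 kb on the y axis.

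The distances to N-Myc fell into separate ranges. The 29 genes with a promoter peak had one within 0.421 kb of an annotated start site, and the 20 unlisted genes had their nearest N-Myc peak between 8.63 kb (DHX58) and 1442 kb (DHX32). No helicase gene had its nearest N-Myc peak between those limits, so widening the promoter to 5 kb added no gene, while the share of all genes rose to 24.6%.

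Typical enhancers bound by N-Myc were assigned to 32 of the 50 genes (64%, 95% CI 49.2 to 77.1%), against 33.2% of all genes. These regions were defined by the authors from H3K27ac, a mark of active regulatory DNA, and assigned by nearest genes. The paper states that H3K27ac peaks within 1 kb of start sites were removed, but the list still held regions that lie over start sites. The distance given for a typical enhancer or super-enhancer is from its middle to the start site. There were 43 assignments of 42 regions, since 1 region was assigned to both DDX21 and DDX50. In 25 assignments the region overlapped the N-Myc promoter of the helicase gene itself. Of the 34 promoter peaks, 30 overlapped a typical enhancer by at least 1 bp and 26 lay wholly within one, so the promoter and enhancer lists were largely not separate measurements. Of the 50 genes, 7 (14%) had a region that overlapped no N-Myc promoter at all, against 14.7% of all genes. These were DDX11, DDX19A, DDX41, DDX47, DHX35, DHX37 and DHX40, with distances from 65.5 kb upstream (DHX40) to 668 kb downstream (DHX35).

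DDX19A, DHX37 and DHX40 were assigned the most regions, with 3 each. For DHX37 these lay 1.78 kb upstream, over its own promoter, and 49.7 and 71 kb downstream, and the farthest held 3 common N-Myc peaks in 8.78 kb. For DHX40 they lay 65.5 kb upstream and 0.603 and 54.1 kb downstream. For DDX19A they lay 0.025, 34.1 and 50.3 kb downstream. Each of the 3 genes thus had 1 region at its own promoter and 2 at a distance.

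A typical enhancer without a listed promoter was found for 5 of the 50 genes, against 19.7% of all genes. Only unlisted genes can be in this class, and fewer of the helicase genes were unlisted. Of the unlisted genes alone it was 5 of 20, against 3712 of 15369 for all coding genes, which is a similar share. These were the ribosome biogenesis genes DDX47, DDX51 and DDX55, the splicing gene DHX16 and DHX9. The middles of their regions lay 26.1 kb upstream, 59.7 kb downstream, 31.5 kb downstream, 14.5 kb upstream and 0.858 kb downstream of the start site. The region of DHX9 covered the annotated start of the gene and overlapped an N-Myc promoter listed under another symbol. Those of DDX51, DDX55 and DHX16 also overlapped N-Myc promoters listed under other symbols, and only that of DDX47 overlapped none. The DHX9 region held no common N-Myc peak, as was the case for 144 of all 4649 N-Myc typical enhancers. For JMJD6 no typical enhancer was assigned to a helicase gene (0 of 50, against 0.958% of all genes).

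Super-enhancers bound by N-Myc were assigned to 2 of the 50 genes (4%, 95% CI 0.488 to 13.7%), against 1.39% of all genes, and both act in splicing. The region of DDX20 (chr1:112270828-112299445, 28.6 kb) held 6 common N-Myc peaks, among them both DDX20 promoter peaks. The region of DHX8 (chr17:41465327-41496970, 31.6 kb) lay 80.2 kb upstream of the start site and held 3. No JMJD6 super-enhancer was assigned (0 of 50, against 0.0794% of all genes). Neither N-Myc region held a JMJD6 peak, against 7 of all 162 N-Myc super-enhancers (4.32%), and 2 regions are too few to differ from that share.

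In all, 35 of the 50 genes (70%, 95% CI 55.4 to 82.1%) were in at least 1 of the 3 N-Myc lists, against 38.7% of all genes. The 15 in none were DDX4, DDX6, DDX25, DDX31, DDX43, DDX46, DDX49, DDX54, DDX60, DDX60L, DHX15, DHX30, DHX32, DHX38 and DHX58. Among them were the germ line genes and the RNA sensing genes, beside 3 each of the ribosome biogenesis and splicing genes.

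Helicases of the same superfamily without a DDX or DHX symbol were looked up for comparison, from a list of 15. Of these, 6 were in the N-Myc promoter list (40%, 95% CI 16.3 to 67.7%), an interval that overlaps that of the 50 genes, and none was in the JMJD6 list. They were the translation initiation helicases EIF4A1 (367 bp peak) and EIF4A2 (535 bp), the exon junction helicase EIF4A3 (383 bp), the U5 helicase SNRNP200 (266 bp), MTREX (the 1015 bp peak shared with DHX29) and the mitochondrial helicase SUPV3L1 (782 bp). The SUPV3L1 peak held 2 CACGTG, more than any DDX or DHX peak.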

How the data were processed

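ChIP-Seq samples from CHP-134 cells were grouped by antibody (3 N-Myc, 3 JMJD6). Per the labels and methods, the authors aligned reads to hg19 with BWA, used SAMtools and bedtools, and called peaks against input with MACS2 2.1.1.20160309 (q-value maximum 0.05), keeping peaks common to all 3 replicates. Promoters were 1 kb on each side of RefSeq start sites. Enhancers were defined with ROSE from H3K27ac (stitching 12.5 kb) and assigned with GREAT. The methods state that H3K27ac peaks within 1 kb of start sites were removed. The 12 deposited lists hold positions in bp and gene symbols, with no score, count or column per sample, so no replicate could be compared or left out.

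Coding genes, features and start sites were taken from GENCODE version 44 on GRCh37, the build of the lists, with older symbols from RefSeq. Peaks were matched to promoters by an overlap of at least 1 bp, and motifs were searched on both strands. Shares have exact (Clopper-Pearson) 95% intervals. Of the 34 promoter peaks, 33 were unique in every 75-mer, and that of DDX11, which has near-identical copies, in 92.4%. Overlap and motif steps were tested on simulated data. Genes, role lists and motifs were chosen with earlier results of these data known. Full values were given for listed splicing and ribosome biogenesis genes and for the 5 widest and narrowest peaks, and every listed gene was named. Python 3.11.15, pysam 0.24.0, numba 0.67.0, SciPy 1.17.1 and matplotlib 3.10.9 were used. Some marker genes are not reported here.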

Additional observations from a re-analysis of the deposited data

How the results depend on the processing

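No paired analysis was possible because the lists pool the replicates and no result comes from a test. The 30 helicase genes with an N-Myc promoter became 17 (11.1% of all genes) when the peak had to be at least as wide as the median common peak, a stand-in for a stricter threshold, and 19 of 32 when, by an alternative added after seeing the data, CpG-rich start sites alone were kept, which removes genes from the comparison by construction. A JMJD6 peak within 5 kb of a start site was found for 1 gene (DHX34; 0.964% of all genes) in place of 0. Enhancers free of N-Myc promoters left 7 genes (14.7% of all genes) in place of 32. CACGTG within 100 bp of the peak centre was present for 9 of 29 genes (24.3% of all genes with a peak) in place of 14, since the window is shorter than the peaks. The other alternatives run stayed within 1.5 times the counts given, and the share of all genes stands in brackets. By annotated start sites within 1 kb or 5 kb, 29 of 50 genes had an N-Myc promoter (20.3% and 24.6%). The count was 21 of 41 without shared promoters (14.3%) and 30 of 51 with older symbols (18.6%). Without 17q, also added after seeing the data, it was 25 of 44 (18.3%). Enhancers within 100 kb or with a common peak left 32 and 31 of 50 genes (25.8% and 32.6%). Super-enhancers within 100 kb left 2 of 50 (0.837%). With 50% of the peak in the promoter, CACGTG was present for 13 of 29 genes (38.1% of all genes with a peak). With CACGCG added it was 19 of 29 (58.6%). Median peak widths were 426 and 452 bp and the median centre lay 60 bp upstream of the nearest annotated start site, all moves below the SD over peaks. Peak strength was not available, so weak and strong occupancy could not be told apart.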
